A study of Mus musculus with 12 samples.

Results

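The resting state of mouse epidermis was described from the 4 non-wounded samples of a series of 12 arrays. The 4 were chosen by their titles, which mark them as not wounded, carry the prefix B6NW and number them as replicates 1 to 4. The other 8 samples of the series were taken at 4 times after wounding and enter no value given here. Expression was read on single-colour arrays as RMA signal, a log2 value per probe set, where a probe set is a group of short probes for 1 transcript or a few related ones. A step of 1 on this scale is a doubling of signal. The table held 1246 probe sets, and 963 of them could be named, for 909 genes.

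All 4 samples share 1 description: no wound, no agent, no allele change in the labels and no time value. The prefix B6 is not spelled out, and neither the age of the mice nor whether the replicates came from separate mice is given in the sources used here, so the spread between them may be technical. The study's question was which keratinocyte genes respond early to a physical wound, and these samples are its unwounded reference. The material is stated in 2 ways. The sample labels name dendritic epidermal T cells (DETC), the resident T cells of mouse epidermis, while the design text plans RNA from the whole epidermis. The values of cell type markers that bear on this are given below.

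Epidermis is a stratified epithelium built mainly by keratinocytes, with Langerhans cells, the antigen-presenting cells of the tissue, and DETC between them. Its cells carry a dense coat of glycans. Glycosyltransferases build these sugar chains in the endoplasmic reticulum and Golgi from nucleotide sugars, lysosomal glycosidases take them apart, and lectins are the proteins that bind them. Proteoglycans carry long sulfated chains that hold growth factors and water. Cytokines and their receptors pass signals between keratinocytes and immune cells, and the genes measured here came mostly from these groups.

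One sample stood apart. Replicate 1 had a narrower range of signal, with an SD over probe sets of 1.81 against 2.22, 2.30 and 2.26 in replicates 2, 3 and 4, and an interquartile range of 2.42 against 3.43 to 3.63. Its Pearson correlation with the others across 1246 probe sets was 0.915 to 0.932, while replicates 2 to 4 correlated with each other at 0.983 to 0.993. Spearman's rho was 0.940 to 0.949 and 0.985 to 0.993. These are correlations across probe sets, which are not independent replicates. The medians of the 4 samples were 4.26, 4.12, 4.04 and 3.94.

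The deviation of replicate 1 followed the level. In the brightest 25% of probe sets, ordered by the mean of replicates 2 to 4, its median difference from that mean was -0.98, and it was the lower value for 250 of 312 probe sets. In the dimmest 25% the median difference was 0.34, and replicate 1 was the higher value for 297 of 312. A line fitted through all probe sets had a slope of 0.743. In all, 194 probe sets (15.6%) were lower in replicate 1 by 1 or more on the log2 scale and 26 (2.09%) were higher by as much. The median SD of a probe set was 0.292 over the 4 samples and 0.146 over replicates 2 to 4. Means and SDs below are over all 4 samples unless stated, with n = 4.

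**Figure D1:**
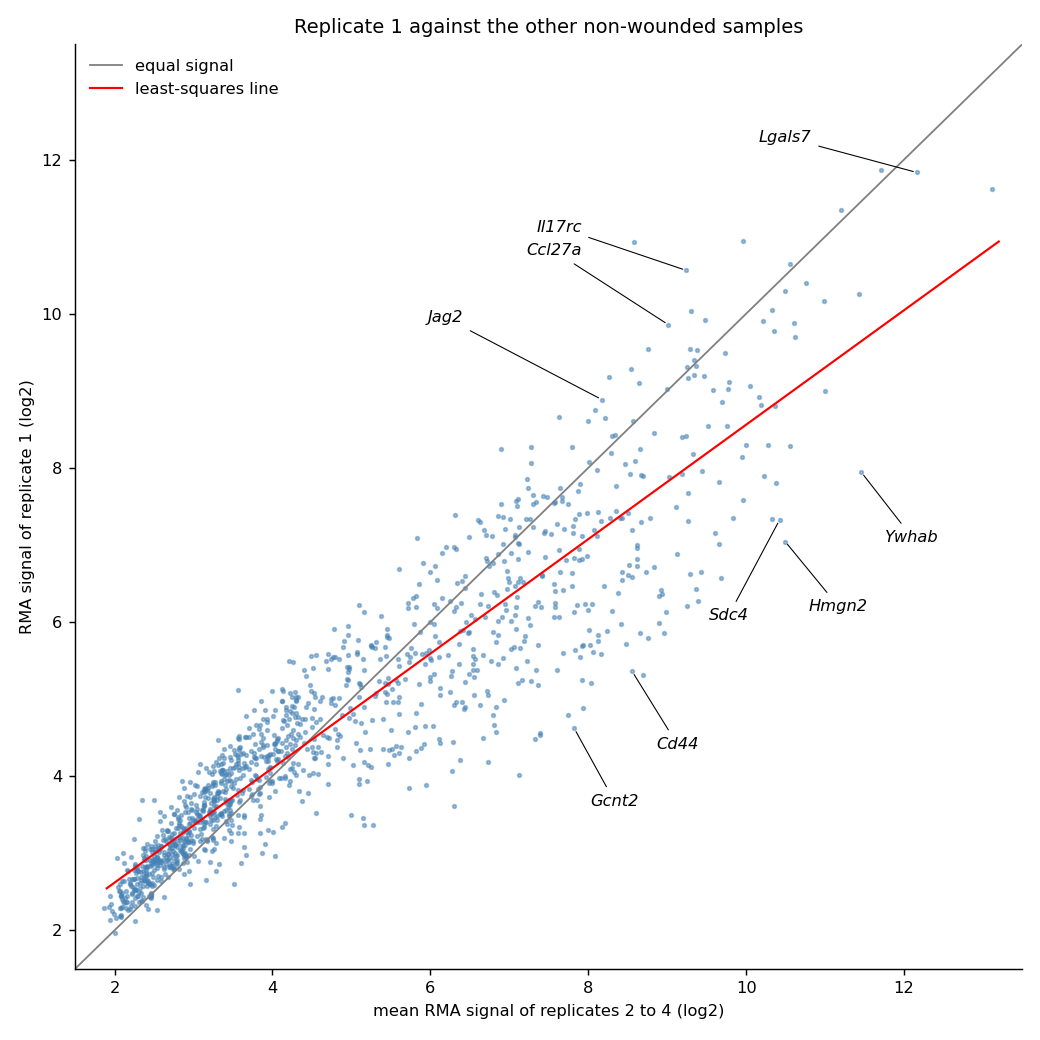
RMA signal (log2) of replicate 1 on the vertical axis against the mean of replicates 2 to 4 on the horizontal axis, 1 point per probe set, with the line of equal signal in grey and the fitted line (slope 0.743) in red. Bright probe sets such as Ywhab, Hmgn2, Sdc4 and Cd44 lie far below the line of equal signal, most dim ones lie just above it, and Il17rc, Ccl27a and Jag2 are bright probe sets above it.

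A rank across probe sets mixes the amount of transcript with how well the probes respond, so ranks describe signal and not molecules. Probe sets of the same gene show how far this goes. For the 48 genes with several probe sets the median gap between the brightest and the dimmest was 0.407, and 26 of the 48 gaps were under 0.5, while 2 different genes differed by a median of 2.08. Most of the gaps under 0.5 belonged to genes whose brightest probe set lay below 4.64, the median of all named genes. The pooled median gap may therefore understate the gap in bright genes. In 5 genes the gap exceeded 2, and the brightest probe set of each lay above 4.64. The receptor Tgfbr2 was at 8.03 by one probe set and 4.28 by another, the skin chemokine Ccl27a at 9.22 and 6.15, and Egfr at 7.28 and 4.73. Ust, which sulfates uronic acid in dermatan and chondroitin sulfate, was at 9.36 and 7.25, and the growth factor Csf1 at 7.24 and 5.20. Smaller gaps were found as well, as for Fzd10 (7.64 and 6.11), Cxcl12 (4.88 and 3.34), Ccr9 (4.71 and 3.39) and Cxcr2 (4.29 and 3.13). The brighter probe sets of Fzd10, Ccr9 and Cxcr2 hold probes that match other transcripts too. Each gene is given below by its brightest probe set.

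Means ran from 1.97 to 12.74, with a median of 4.64 and quartiles of 3.30 and 6.85 over the 909 named genes. RMA gives no detection call, so a low value is not a proof of absence and a middling one is no proof of presence. As a rough guide, 14 genes known for liver, lung, kidney, pancreas, oviduct or endocrine cells lay between 2.31 and 4.80, with a median of 3.00. They were picked after their values were seen. Among them, the lung surfactant protein Sftpa1 was at 2.31 ± 0.26, the hepatic lectin Asgr1 at 2.92 ± 0.20 and the urinary protein Umod at 3.39 ± 0.08. The other end was held by the oviduct glycoprotein Ovgp1 at 4.80 ± 0.58 and the liver protein Ahsg at 4.73 ± 0.48, both above the median of all named genes.

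**Figure D2:**
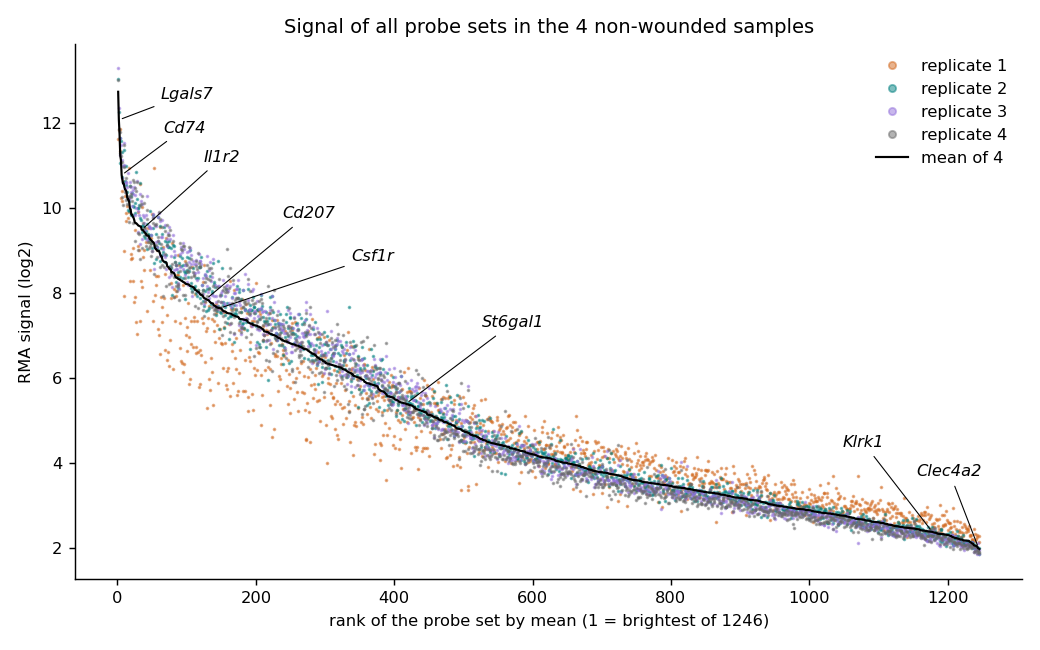
RMA signal (log2) of the 1246 probe sets in each of the 4 non-wounded samples (coloured points) and their mean (black line), ordered by mean from rank 1. Lgals7, Cd74 and Il1r2 lie at the bright end and Klrk1 and Clec4a2 at the dim end, and the points of replicate 1 fall below the line on the left and above it on the right.

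The brightest named gene was Rps27, a protein of the small ribosomal subunit, at 12.74 ± 0.76, with values of 11.62, 13.04, 13.29 and 13.02 in replicates 1 to 4, the order used for sample values throughout. Lgals7, galectin 7, a galactose-binding lectin known for stratified epithelium, followed at 12.08 ± 0.27. Its values were 11.83, 12.27, 12.36 and 11.86, and it held rank 2 in every sample. It was the brightest of all the glycan, lectin, cytokine and receptor genes measured. Next came the glycolytic enzyme Aldoa at 11.75 ± 0.10, and then another galectin, Lgals3, at 11.14 ± 0.61.

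The rest of the 15 brightest genes joined tissue-specific and housekeeping functions. Cd74, the invariant chain that guides MHC class II molecules in antigen-presenting cells, was at 10.78 ± 0.45. The glycoprotein Bsg (basigin) followed at 10.67 ± 0.46 and the copper chaperone Atox1 at 10.58 ± 0.38. The lysosomal membrane glycoprotein Lamp1 was at 10.50 ± 1.00 and Psap, the precursor of the saposins that help lysosomal enzymes reach glycolipids, at 10.44 ± 0.15. Jund, a subunit of the AP-1 transcription factor, the DNA damage-binding protein Ddb1, the proteasome subunits Psmc5 and Psmb3, the 14-3-3 protein Ywhab and the annexin partner S100a10 lay between 10.20 and 10.58. Across samples the bright end was only partly stable: of the 50 brightest probe sets, 24 were shared by all 4 samples and 38 by replicates 2 to 4.

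At the dim end lay lectins of myeloid and NK cells and a number of enzymes and secreted proteins. The dimmest named gene was Clec4a2, a C-type lectin of dendritic cells and monocytes, at 1.99 ± 0.11, with values of 2.13, 1.99, 1.94 and 1.88. Among the 15 dimmest were 4 NK cell lectin-like receptors of the Ly49 family, Klra4, Klra10, Klra6 and Klra3, between 2.11 and 2.17. Probe sets of Klra4, Klra10 and Klra6 hold probes that match other transcripts too, so these receptors cannot be told apart firmly. The collectins Colec12 (2.05 ± 0.08) and Colec10 (2.16 ± 0.23), which are soluble or scavenger lectins, were there as well, and so was Olr1, a lectin-like receptor for oxidised lipoprotein, at 2.20 ± 0.11. The group also held the sulfotransferases Sult1d1 and Sult1c1, the galactosyltransferase B3galt2, the mucin-like Prol1, the proteoglycans Prg4 and Spock3 and the growth factor Pdgfd, all between 2.03 and 2.19.

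Marker genes were read next, since the labels and the design text name different material. The marker lists were chosen with earlier results of these data known, so their medians are no independent test of the material. Keratinocyte markers had a median of 8.93 over the 8 measured of 19 listed, and 7 of the 8 lay in the brightest 25% of named genes. The median of the list was 8.11, 9.04, 9.28 and 9.24 in replicates 1 to 4, against medians of 4.60, 4.72, 4.63 and 4.42 for all named genes in the same samples. Behind Lgals7 and Lgals3 came Fgfr2, whose epithelial form is the receptor for Fgf7, at 8.30, 9.85, 10.34 and 10.66, and Sdc1, the main syndecan of stratified epithelium, at 8.40, 9.02, 9.24 and 9.32. The interleukin 20 receptor subunits Il20rb (8.86 ± 0.64) and Il20ra (7.65 ± 0.70) and the EGF receptor Egfr (7.28 ± 1.11) were bright too. Egfr was bright by its brighter probe set only, and its other probe set was at 4.73. The lowest of the 8 was the interleukin 1 receptor antagonist Il1rn at 6.60 ± 0.58. The keratins Krt5, Krt14, Krt1 and Krt10 and the genes Cdh1, Trp63, Ivl and Lor were listed too but not analysed here.

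Langerhans and dendritic cell markers split. Cd207, langerin, the lectin that defines Langerhans cells, was at 7.11, 7.57, 8.41 and 8.35, with a mean of 7.86 ± 0.63. Csf1r, the receptor on which Langerhans cells depend, was at 7.15, 7.56, 7.92 and 7.95, with a mean of 7.65 ± 0.37. Together with Cd74, whose values were 10.16, 10.73, 11.13 and 11.10, they lay in the brightest 25% in the mean over samples. For all 3, replicate 1 was the lowest. The other 4 measured markers of 16 listed were lower: Flt3, a growth factor receptor of dendritic cell precursors, at 4.66 ± 0.40, Cd83 at 4.14 ± 0.27, the endocytic lectin Ly75 at 3.44 ± 0.26, and Clec4a2. The median of the list was 4.66, close to that of all named genes.

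The listed T cell markers gave mostly low signal. Klrk1, which encodes the activating receptor NKG2D carried by DETC and NK cells, was at 2.55, 2.32, 2.36 and 2.27, with a mean of 2.38 ± 0.12 and rank 1178 of 1246. The 10 measured of 21 listed T cell markers had a median of 3.90, with 4 in the dimmest 25% and 1, Prdm1, in the brightest. Prdm1, a transcription factor of lymphocytes that keratinocytes also express, was at 7.70 ± 0.62. Xcl1, a chemokine of activated T and NK cells, was at 6.32, 6.24, 5.81 and 5.28, above the median of named genes in all 4 samples. Next were Il2rb, the interleukin 2 and interleukin 15 receptor chain, at 5.09 ± 0.29 and the adhesion molecule Cd2 at 4.77 ± 0.22, and the early activation marker Cd69 was at 2.47 ± 0.17. Cd3e, Cd3d and Cd3g, the T cell receptor complex genes that define the lineage, were not analysed here. The list does not hold every T cell gene measured. The integrin Itgae, known from epidermal T cells, is outside it and was at 5.24, 5.34, 5.48 and 5.24, above the median of named genes in all 4 samples. In bulk RNA fewer cells of a type and less RNA per cell cannot be told apart, so these values give no share of cells.

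Markers of other cell types were low as lists, with single exceptions. Dermal fibroblast markers had a median of 3.19 over 9 genes with none in the brightest 25%. Their brightest were the chemokine Cxcl12 (4.88 ± 0.41) and the collagen-binding proteoglycans Dcn (4.53 ± 0.21) and Bgn (4.47 ± 0.23), and the dimmest was Lum at 2.32 ± 0.15. Endothelial markers had a median of 3.39 over 4 genes, from Cd34 at 4.96 ± 0.21 to the endothelial selectin Sele at 2.48 ± 0.11. Monocyte and macrophage markers had a median of 3.39 over 6, from Csf2ra, a subunit of the GM-CSF receptor, at 4.46 ± 0.22 to Ccr2 at 2.49 ± 0.22. For NK cells the median was 3.01 over 4 genes, led by Klrd1 at 5.38 ± 0.38, and for B cells 3.63 over 3, led by Cd22 at 3.84 ± 0.09. Mast cell markers were measured for 2 of 7 and melanocyte markers for 0 of 6.

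Among 7 neutrophil markers the exception was Il1r2, the decoy receptor that binds interleukin 1 without signalling. It was at 8.14, 9.45, 10.09 and 10.29, with a mean of 9.49 ± 0.97. The other 6 lay between 2.41 and 4.29, from the lectin Clec4e (2.41 ± 0.17) to the chemokine receptor Cxcr2 (4.29 ± 0.62), and the list median was 3.12. Il1r2 is known from keratinocytes as well as from neutrophils, and the part of either cell in its signal was not tested.

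**Figure D3:**
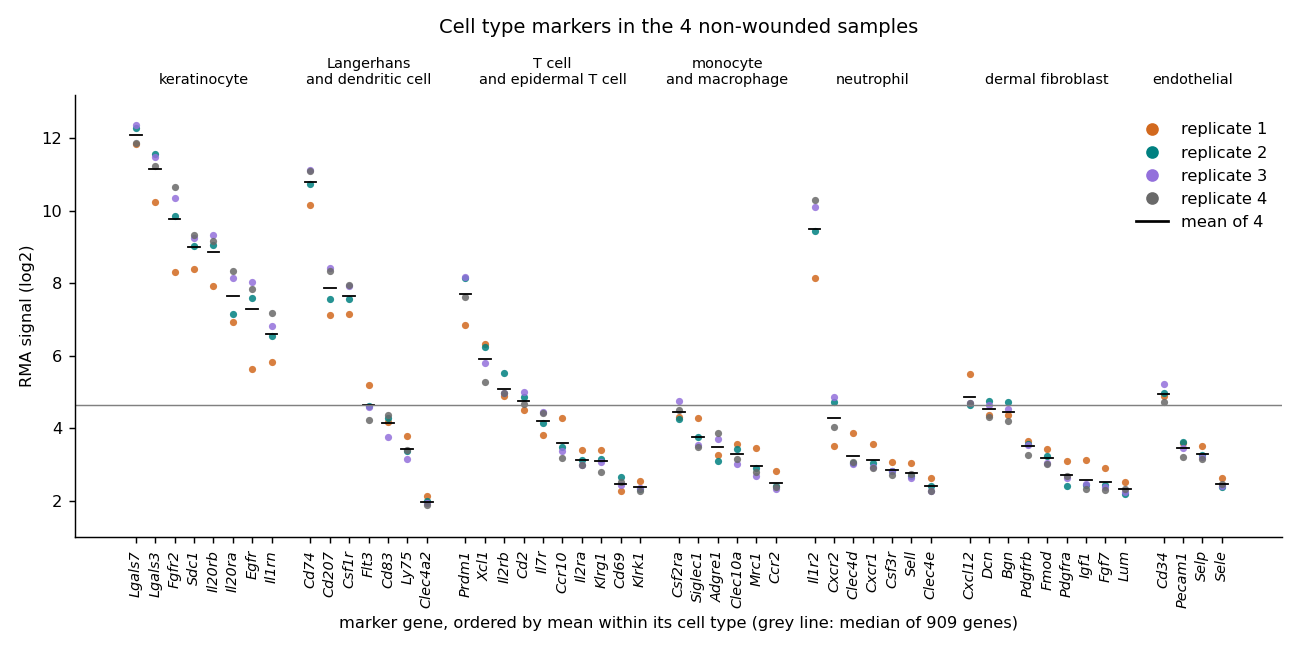
RMA signal (log2) of each measured marker gene in the 4 non-wounded samples (coloured points) with the mean (black bar), grouped by cell type, and the median of the 909 named genes as a grey line. All 8 keratinocyte markers, Cd74, Cd207, Csf1r, Prdm1, Xcl1, Il2rb, Il1r2 and Cd34 lie above the grey line in every sample, while most markers of other cells lie below it.

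By class median, glycan enzymes were highest and lectins lowest. The class called glycan enzymes also holds genes that are not enzymes. These include the 14 genes listed as nucleotide sugar transporters, lysosomal proteins such as Lamp1 and Psap, and the receptor Cd44, which is counted among receptors too. The median was 5.20 for 252 glycan enzymes, 4.45 for 120 receptors, 4.38 for 36 proteoglycans and mucins, 3.59 for 154 cytokines and 3.20 for 84 lectins, beside 4.64 for all 909 named genes. In the brightest 25% of genes, 228 of the 909, stood 57 glycan enzymes, 31 receptors, 12 cytokines, 5 lectins and 5 proteoglycans. As a share of each class this was 22.6% of glycan enzymes, 25.8% of receptors, 13.9% of proteoglycans, 7.79% of cytokines and 5.95% of lectins, so by this measure receptors were ahead of glycan enzymes. In the dimmest 25%, also 228 genes, stood 46 glycan enzymes, 23 receptors, 59 cytokines, 47 lectins and 11 proteoglycans. Lectin medians were 3.49, 3.17, 3.03 and 3.01 in replicates 1 to 4 and glycan enzyme medians 4.88, 5.16, 5.22 and 5.15, so the order of these 2 classes was the same in each sample. Genes can belong to several lists within a class and are counted once per class.

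**Figure D4:**
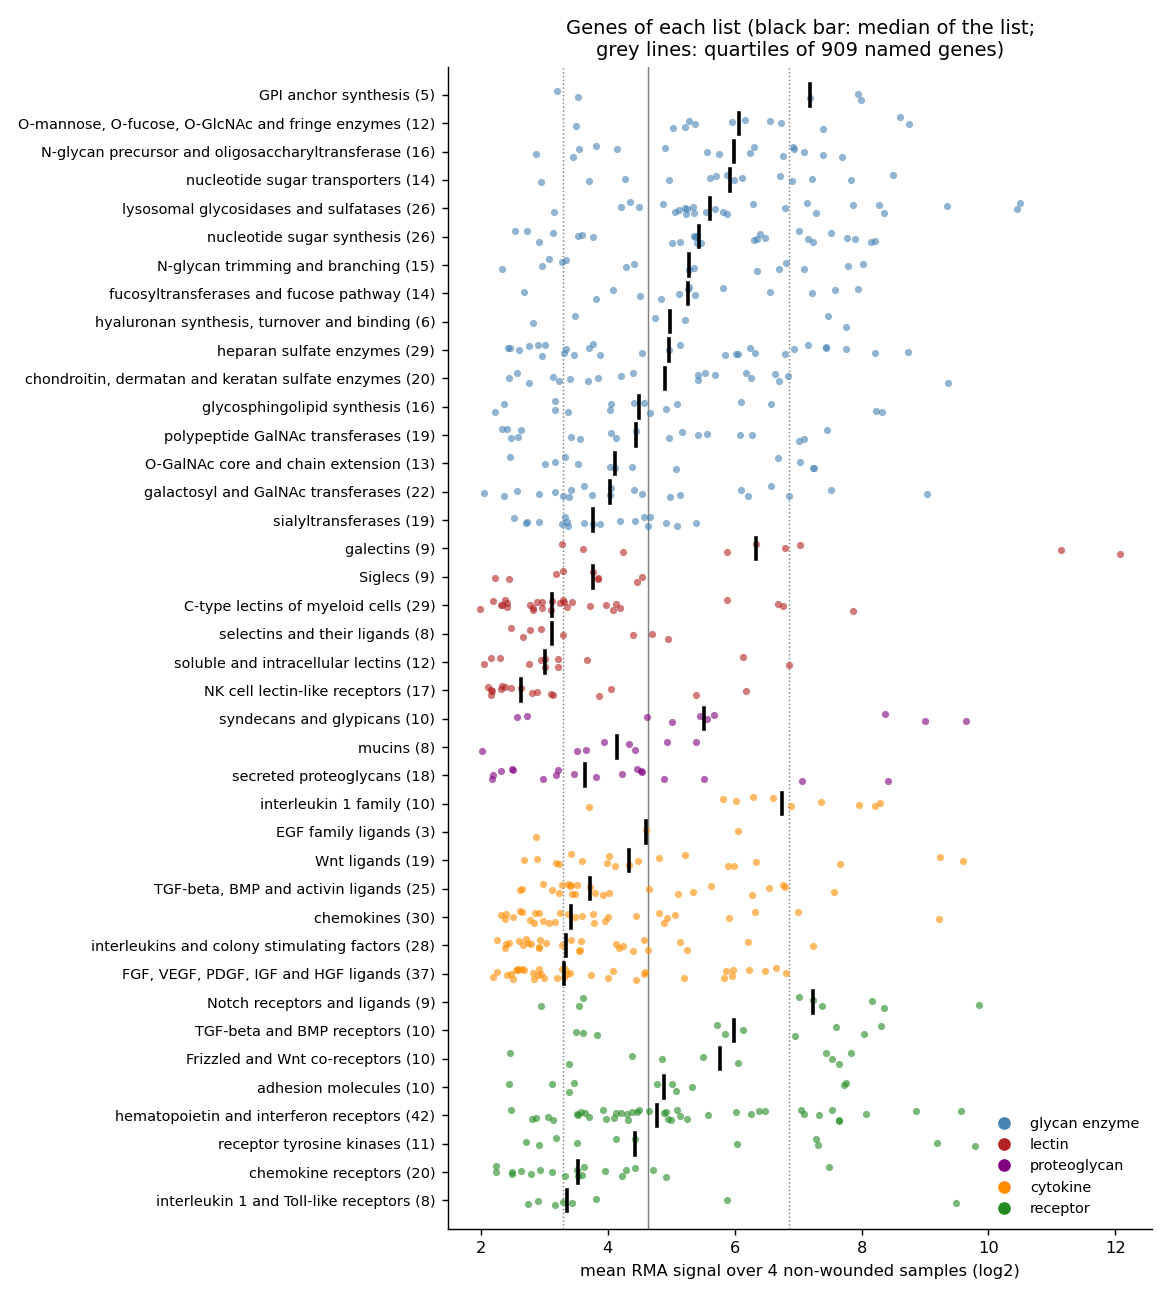
Mean RMA signal (log2) over the 4 non-wounded samples for each gene of the glycan enzyme, lectin, proteoglycan, cytokine and receptor lists in which at least 3 genes were measured (points, coloured by class, number of genes in brackets), with the median of each list as a black bar and the quartiles and median of the 909 named genes as vertical grey lines. Notch genes (7.24), genes of GPI anchor synthesis (7.19) and the interleukin 1 family (6.74) have the brightest medians of these lists, and NK cell lectin-like receptors (2.64) the dimmest. Cell type marker lists are not drawn here.

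An N-glycan is assembled on the lipid dolichol and moved as a block to the protein by the oligosaccharyltransferase. The 16 genes of these steps had a median of 5.995, with 5 in the brightest 25% and 1 in the dimmest. Dpm2, a subunit of the enzyme that makes dolichol-phosphate mannose, was at 7.69 ± 0.17, the transferase subunit Rpn2 at 7.40 ± 0.87 and Dpagt1, which places the first sugar, at 7.10 ± 0.17. Signal for the other transferase subunit of the pair, Rpn1, was 3.46 ± 0.12, and for the glucosyltransferase Alg6 2.87 ± 0.18. The 15 genes of N-glycan trimming and branching had a median of 5.28. Mgat1, which opens the way from high-mannose to complex chains, was at 8.07, 8.36, 8.02 and 7.66, and the mannosidase Man2a1 at 5.71, 8.41, 8.73 and 8.30. Replicate 1 was the lowest sample for Man2a1 but not for Mgat1. The folding sensor Uggt1 was at 7.09 ± 0.19 and the branching enzyme Mgat4c at 2.33 ± 0.13.

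O-glycans begin with N-acetylgalactosamine placed by a large family of polypeptide transferases, and all 19 listed members were measured. Their median was 4.45, with 3 in the brightest 25% and 5 in the dimmest. Galnt2 (7.45 ± 0.35), Galnt6 (7.09 ± 0.48) and Galnt18 (7.01 ± 0.37) led, followed by Galnt1 at 4.67, 6.17, 6.94 and 7.28. Galntl6 and Galnt13 closed the family at 2.41 ± 0.13 and 2.33 ± 0.45. Among 13 genes of core and chain extension the chaperone C1galt1c1, which the core 1 galactosyltransferase needs, was at 7.25 ± 1.34. B4gat1, which extends the matriglycan primer of dystroglycan, was at 7.24 ± 0.79, and the branching enzyme Gcnt2, which makes the I antigen, at 7.02 ± 1.61. Gcnt3, the mucin-type branching enzyme of mucous epithelia, was at 2.47 ± 0.15.

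The enzymes that lengthen and cap chains were less bright as groups. Galactosyl and N-acetylgalactosaminyl transferases had a median of 4.04 over 22 genes, and B4galt1, the main galactosyltransferase of N-glycan antennae, stood far above it at 8.42, 9.39, 9.20 and 9.14. It was followed by Ggta1, which makes the alpha-galactose epitope, at 7.53 ± 0.95 and B4galt3 at 6.86 ± 0.46. Sialyltransferases, which add the terminal sialic acid, had a median of 3.77 over 19 genes with 0 in the brightest 25% and 5 in the dimmest. St6gal1 was the brightest of them at 5.19, 5.49, 5.52 and 5.37, and the next were St6galnac6 (5.09 ± 0.43), St3gal2 (4.91 ± 0.46) and St3gal5, the GM3 synthase (4.67 ± 0.36). St8sia3 was the dimmest at 2.53 ± 0.04.

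Fucosylation genes were brighter, with a median of 5.27 over 14. Fut2, the secretor-type fucosyltransferase, was at 7.31, 8.06, 8.35 and 8.07, and Gfus, which makes the donor GDP-fucose, at 7.56, 7.71, 7.57 and 7.47. The GDP-fucose transporter Slc35c1 was at 7.22 ± 0.44 and Fut9, which makes the Lewis x epitope, at 2.68 ± 0.69. Of the 12 enzymes of O-mannose, O-fucose and O-GlcNAc chains the fringe enzyme Rfng, which modifies Notch, was at 8.74 ± 0.69 and Lfng at 6.74 ± 0.19. Oga, which removes O-GlcNAc from intracellular proteins, was at 6.28, 9.24, 9.55 and 9.37. Pomgnt1 of the O-mannose pathway was at 7.39 ± 0.24.

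Genes listed for donor sugars and their transport gave middling to bright signal. Nucleotide sugar synthesis had a median of 5.44 over 26 genes with 8 in the brightest 25%, led by the N-acetylglucosamine kinase Nagk (8.21 ± 0.32) and the phosphomannomutases Pmm2 (8.15 ± 0.30) and Pmm1 (7.89 ± 0.53). Pgm3, a step in making UDP-N-acetylglucosamine, was at 2.97, 2.37, 2.38 and 2.44, in the dimmest 25%. The 14 genes listed as transporters had a median of 5.93, from Slc35b1 at 8.49 ± 0.42 and Slc35a4 at 7.83 ± 0.19 down to Slc35d3 at 2.94 ± 0.22. A place in that list is no proof that a gene product carries donor sugars. GPI anchor synthesis, which makes the glycolipid that tethers proteins to the membrane, was measured for 5 of 22 genes. Pigp (7.98 ± 0.97), Pigq (7.95 ± 0.36) and Piga (7.19 ± 0.76), members of the complex for its first step, were bright, and Pigb and Pigm were at 3.54 ± 0.37 and 3.20 ± 0.51.

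Many glycosphingolipids, sugar-bearing lipids found in the skin barrier, are made from glucosylceramide. Ugcg, which makes glucosylceramide, was at 7.41, 8.48, 8.66 and 8.37, and Gal3st1, which makes sulfatide, at 8.65, 8.72, 8.10 and 7.84. The list of 16 had a median of 4.49, and Ugt8a, which makes the galactosylceramide that Gal3st1 uses, was its dimmest gene at 2.22 ± 0.07. On the side of breakdown, 26 lysosomal genes had a median of 5.62 with 8 in the brightest 25% and 1 in the dimmest. Besides Lamp1 and Psap, these included the activator Gm2a, which helps an enzyme reach its ganglioside, at 8.42, 8.39, 8.57 and 8.06. The dimmest of the list was the sialidase Neu3 at 3.16 ± 0.30.

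Heparan sulfate enzymes had a median of 4.96 over 29 genes, with 7 in the brightest and 7 in the dimmest 25%. Hs3st6, a 3-O-sulfotransferase, was at 9.29, 8.89, 8.57 and 8.17, and Ndst1, which starts sulfation, at 6.65, 8.54, 8.98 and 8.67. The polymerase subunit Ext2 was at 7.76 ± 0.28 and the epimerase Glce at 7.45 ± 1.23. Other family members were dim, with the extracellular sulfatase Sulf1 at 2.47 ± 0.02, Hs6st2 at 2.60 ± 0.03 and Hs3st5 at 2.43 ± 0.20. For chondroitin, dermatan and keratan sulfate the median was 4.91 over 20 genes. Ust was at 9.40, 9.03, 9.25 and 9.74 by its brighter probe set, and after it came the chain-starting Csgalnact1 (6.84 ± 0.27) and Chst3 (6.69 ± 0.53). Chst8 and Chsy3 were at 2.56 ± 0.21 and 2.44 ± 0.17.

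Hyaluronan genes were measured for 6 of 15. The receptor Cd44 was at 5.36, 8.71, 8.79 and 8.16, with replicate 1 far below the other 3. The hyaluronidases Hyal2 and Hyal1, which cut the chain, were at 7.47 ± 0.51 and 5.22 ± 0.76. The synthases Has1, Has3 and Has2 were at 4.75 ± 0.56, 3.49 ± 0.18 and 2.82 ± 0.34.

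The 10 syndecans and glypicans had a median of 5.51. Sdc4, a syndecan of focal adhesions, was at 7.32, 10.85, 10.01 and 10.40, and Gpc1 was at 8.05, 8.67, 8.57 and 8.17, with Sdc1 between them in the mean. Gpc5 was at 2.57 ± 0.20. Among 18 secreted proteoglycans, with a median of 3.64, the basement membrane protein Agrn was at 8.42 ± 0.72 and Cspg4, known as NG2, a membrane-spanning proteoglycan kept in that list, at 7.06 ± 0.52. The 8 mucins had a median of 4.14 with 0 in the brightest 25%, and Muc13 was their brightest at 5.39 ± 0.27.

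Lectins divided sharply by family. The 9 galectins had a median of 6.33, with 3 in the brightest 25% and 1 in the dimmest. After Lgals7 and Lgals3 came Lgals1 at 7.36, 7.18, 7.41 and 6.17 and Lgals8 at 5.50, 6.83, 7.43 and 7.42, and Lgals9 was at 5.15, 5.36, 6.06 and 6.97. Lgals12 and Lgals2 were at 3.60 ± 0.10 and 3.28 ± 0.11. The probe sets of Lgals7, Lgals3, Lgals1 and Lgals9 are shared by several transcripts, so close relatives may add to their signal. This limit is not particular to galectins. Of the 1246 probe sets 237 are of this shared type, among them those given for Fgfr2, Ccl27a, Ust and Notch2.

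The other lectin families were dim. Of 29 C-type lectins of myeloid cells, 16 lay in the dimmest 25% and 1, Cd207, in the brightest, with a median of 3.13. Mrc2, a collagen-binding receptor, was at 6.76 ± 0.57, Clec2d at 6.68 ± 0.73, the growth factor Clec11a at 5.87 ± 0.57 and the macrophage mannose receptor Mrc1 at 2.97 ± 0.34. Of 17 NK cell lectin-like receptors 13 were in the dimmest 25% and 0 in the brightest, and the brightest was Cd72, a C-type lectin of B cells, at 6.17 ± 0.84. Siglecs, the sialic acid-binding receptors of leukocytes, had a median of 3.77 over 9, from Siglec15 at 4.54 ± 0.17 and the myelin protein Mag at 4.46 ± 0.21 to Siglecf at 2.22 ± 0.13, and Siglec1 of macrophages was at 3.77 ± 0.37. Selectins and their ligands had a median of 3.12 over 8, with Madcam1 at 4.70 ± 0.21 and Selplg at 4.40 ± 0.21. Among 12 soluble and intracellular lectins the cargo receptor Lman2l (6.85 ± 0.77) and the mannose 6-phosphate receptor Igf2r (6.14 ± 0.63) stood above a median of 3.01.

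Among cytokines, the interleukin 1 family was the brightest list, with a median of 6.74 over 10 genes, 5 in the brightest 25% and 0 in the dimmest. Il33, an alarmin stored in the nucleus of epithelial cells, was at 6.36, 8.82, 8.98 and 9.02. Il1f5, the interleukin 36 receptor antagonist, was at 7.003, 8.50, 8.66 and 8.70, and Il18, held as a precursor in keratinocytes, at 6.54, 8.86, 8.68 and 7.76. Replicate 1 was the lowest sample for each of these. Il1f10 was at 7.36 ± 0.32, Il1a at 5.59, 5.87, 6.04 and 5.80, and Il1b, like Il1a an inflammatory member, at 4.08, 3.62, 3.52 and 3.61.

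Chemokines, in contrast, had 14 of 30 genes in the dimmest 25% and 2 in the brightest, with a median of 3.43. Ccl27a, the keratinocyte chemokine that draws Ccr10-bearing T cells to skin, was at 9.86, 9.07, 8.99 and 8.98 by its brightest probe set, with replicate 1 the highest. Cx3cl1, a membrane-bound chemokine, was at 6.997 ± 0.31 and Cxcl14, which is made by resting epithelia, at 6.32 ± 0.35. The neutrophil chemokine Cxcl5 was at 2.32 ± 0.18 and the monocyte chemokine Ccl12 at 2.38 ± 0.10. Interleukins and colony stimulating factors had a median of 3.35 over 28 genes. Csf1, a ligand of Csf1r, was at 8.24, 7.23, 6.77 and 6.70, Il17d at 6.20 ± 0.34, Il27 at 5.25 ± 0.37 and Il15, a survival factor of DETC, at 4.16, 5.44, 5.76 and 5.18. The T cell cytokines Il17a and Il21 were at 2.25 ± 0.46 and 2.38 ± 0.24.

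The FGF, VEGF, PDGF, IGF and HGF ligands had a median of 3.30 over 37 genes, with 18 in the dimmest 25% and 0 in the brightest. The PDGF chains Pdgfb (6.81 ± 0.47) and Pdgfa (6.65 ± 0.44), Fgf22 (6.47 ± 0.36) and Igf2 (6.23 ± 0.34) led them, while Fgf7, a fibroblast product and DETC product that acts on keratinocytes, was at 2.51 ± 0.28 and Hgf at 2.26 ± 0.11. Of the 3 EGF family ligands measured, Btc was at 6.05 ± 0.60, Hbegf at 4.61 ± 0.38 and Areg at 2.87 ± 0.08. TGF-beta, BMP and activin ligands had a median of 3.73 over 25, and their brightest were the procollagen protease Bmp1, listed there by its name (7.56 ± 0.18), Tgfb1 (6.79 ± 0.12), Bmp7 (6.76 ± 0.40) and Bmp4 (6.54 ± 0.41), with Gdf6 last at 2.61 ± 0.24.

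All 19 Wnt ligands were measured, with a median of 4.34. Wnt7b was at 9.92, 10.00, 9.43 and 9.02 and Wnt4 at 9.17, 9.38, 9.54 and 8.89, and both are known from epidermal keratinocytes. Replicate 4 was the lowest sample for both. Wnt10a followed at 7.66 ± 0.37 and Wnt3a at 6.34 ± 0.37, and Wnt2 was the dimmest at 2.67 ± 0.24.

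The 9 Notch receptors and ligands, which drive keratinocyte differentiation, had a median of 7.24 with 6 in the brightest 25%. Notch1 was at 8.82, 10.36, 10.05 and 10.16, Jag2 at 8.89, 8.12, 8.24 and 8.16, Notch2 at 5.98, 9.02, 9.06 and 8.60 and Jag1 at 5.70, 8.08, 8.07 and 7.67. Replicate 1 was the lowest of the samples for Notch1, Notch2 and Jag1 and the highest for Jag2. Notch4, the endothelial member, was at 2.95 ± 0.11. In replicate 1 the list median was 5.70, against 7.68, 7.79 and 7.67 in the others.

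The 10 Frizzled and Wnt co-receptors had a median of 5.77, with Smo, a related receptor of the hedgehog pathway, at 7.84 ± 0.41, Fzd10 at 7.64 ± 0.56, Fzd6 at 7.53 ± 0.94, Fzd1 at 7.45 ± 0.85 and Fzd4 at 2.45 ± 0.08. TGF-beta and BMP receptors had a median of 5.99 over 10 genes, led by Tgfbr3 (8.31 ± 1.11), Tgfbr2 (8.03 ± 1.01) and Bmpr1a (7.60 ± 0.93), with Bmpr1b last at 3.50 ± 0.36. Among 11 receptor tyrosine kinases, with a median of 4.43, Fgfr2 was followed by Fgfr3 at 7.81, 9.54, 9.79 and 9.64 and Igf1r at 5.54, 8.09, 7.83 and 7.77. The fibroblast receptor Pdgfra was at 2.71 ± 0.28.

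The 42 hematopoietin, interferon and interleukin 17 receptors had a median of 4.77, with 9 in the brightest and 5 in the dimmest 25%. Il17rc, a chain of the interleukin 17 receptor, was at 10.56, 9.76, 9.16 and 8.80. Ifngr1, the ligand-binding chain of the interferon gamma receptor, was at 6.73, 8.01, 8.79 and 8.77, and Il22ra2, a soluble inhibitor of interleukin 22, at 5.75, 7.29, 8.07 and 9.03. Il17rb was among the least variable genes of the table at 5.13 ± 0.03, and Il23r, the receptor of type 17 T cells, was at 2.47 ± 0.25. Interleukin 1 and Toll-like receptors had a median of 3.37 over 8 genes, and after Il1r2 the signalling receptor Il1r1 was at 5.50, 5.82, 6.18 and 6.01.

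Chemokine receptors had a median of 3.52 over 20, with 1 in the brightest 25%. That one was Ackr4, a receptor known from keratinocytes that takes up chemokines without signalling, at 5.89, 7.51, 8.21 and 8.32. Cx3cr1, the receptor of Cx3cl1, was at 4.91 ± 0.62 and Ccr9 at 4.71 ± 1.09, while Ccr1 was at 2.23 ± 0.08. Adhesion molecules had a median of 4.89 over 10, from Cd44 and L1cam (7.72 ± 0.47) to Vcam1 at 2.45 ± 0.17. The 24 listed genes of the TNF receptor family were not analysed here.

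The spread between samples was itself uneven. The 10 genes with the largest SD were Ywhab, Hmgn2, Cd44, Gcnt2, Sdc4, Oga, Igfbp3, Zc3h11a, G3bp2 and Gnb1, and replicate 1 was the lowest sample for all 10. Ywhab had values of 7.94, 11.36, 11.54 and 11.48, an SD of 1.76 over 4 samples and of 0.09 over replicates 2 to 4. The chromatin protein Hmgn2 was at 7.04, 10.22, 10.65 and 10.62. The binding protein of insulin-like growth factors Igfbp3 was at 5.85, 8.82, 8.99 and 9.08. For Ywhab, Hmgn2 and Igfbp3 the 3 other samples lay within 0.5 of each other. They lay further apart for Sdc4 (10.85, 10.01 and 10.40) and Cd44 (8.71, 8.79 and 8.16). Over the whole table, 75 probe sets had an SD above 1, and replicate 1 was the lowest sample in 73 of them. The 5 genes with the smallest SD were Sulf1, Il17rb, Hs6st2, St8sia3 and the RNA helicase Ddx24, and Ddx24, at 7.66 ± 0.04, was the one bright gene among them.

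Other genes varied among replicates 2 to 4. The small GTPase Rab7, which directs late endosomes, was at 7.10, 5.95, 7.08 and 8.18, with an SD of 1.12 over replicates 2 to 4. Il22ra2 had an SD of 0.87 over these 3 samples, Tmsb10 0.85, Lgals9 0.81, the teneurin Tenm4 0.79 and Ccr9 0.76. The others of the 10 most variable were Pgm2l1, the presenilin Psen2, Lgals1 and the polymerase subunit Polr2f, with SDs of 0.65 to 0.68. Il22ra2 and Lgals9 were highest in replicate 4, and Tmsb10 (5.54, 6.73, 6.46 and 5.14) and Tenm4 (6.80, 8.58, 8.05 and 7.02) were highest in replicate 2. Most genes kept the mark of bright or dim without replicate 1. Of the 228 genes in the brightest 25%, 216 were also in the brightest 25% by replicates 2 to 4 alone. Of the 228 in the dimmest, 218 were also in the dimmest. Replicates 2 to 4 enter both means, so much of this overlap was built in.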

How the data were processed

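Total RNA extracted with Trizol was made into biotin-labelled cRNA, per the labels' protocols, and hybridised to single-colour arrays. The authors deposited log2 values, and the submitters' processing notes name RMA, which corrects background, normalizes and summarises probe sets. The sources used here do not give the array name, the software version, a filter, or whether all 12 arrays were normalized together. The 4 non-wounded columns did not share a single distribution. All 12 columns of the table matched a sample, and none of the 8 wounded columns was used.

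Probe sets were named by their RefSeq accession without version through a RefSeq gene table of GRCm38.p6, used for names only. Of 1246 probe sets 963 matched 1 symbol, and the rest stay without a name. Where a gene had several probe sets, the brightest by mean stands for it. For each probe set the mean, SD and rank over the 4 samples were computed, and for each gene list the median over its measured genes. With 1 group there is no comparison between groups and no test, and precision is limited by having 4 arrays. The members and lists were chosen with earlier results of these data known. The code was tested on simulated data.

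Named genes are the 5 markers Lgals7, Cd207, Il1r2, Csf1r and Klrk1, the 15 brightest and 15 dimmest, up to 4 brightest and 2 dimmest of each list in which at least 3 genes were measured, the 10 largest and 5 smallest SDs, and the 10 largest SDs over replicates 2 to 4. Of the 236 genes named in the text, 230 come from the 295 under this rule, and some genes that the rule takes are left out here. The other 6 (Cd83, Sftpa1, Asgr1, Umod, Ovgp1 and Ahsg) were chosen after their values were seen. Itgae, also chosen with its values seen, is not in these counts. Alternatives were repeated quantile normalization, median centring, scaling to one median and SD, leaving out each replicate, the median over samples, the mean over a gene's probe sets and leaving out probe sets whose mean lay under the 25 percentile. Promoter CG content was looked at beside the signal, over all genes and at both ends of the ranking. It is not reported, because only 708 of the 909 genes (77.9%) had a promoter in the RefSeq table, too few for that check, and the ends were chosen after the values were seen. The software was Python 3.11.15 with pandas 2.3.3, numpy 2.4.6 and, for figures, matplotlib 3.10.9.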

Additional observations from a re-analysis of the deposited data

Results flagged for a closer look

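For 39 of the 236 genes named in the text, 1 of the 4 samples lay far from the other 3. The measure is the gap between the far sample and its nearest neighbour as a share of the whole range over the 4 samples and the limit is Dixon's critical value for 4 samples. Chance flags about 1 group in 20. Over all 909 named genes the limit was passed by 137 (15.1%), and replicate 1 was the far sample for 127 of them.

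Replicate 1 lay below the others for 24 genes of the text. The gap ratio was largest for Lamp1 (0.980), G3bp2 (0.966), Ywhab (0.951), Zc3h11a (0.950), Il33 (0.925), Gnb1 (0.919), Igfbp3 (0.919), Oga (0.905), Gcnt2 (0.904), Alg6 (0.892), Glce (0.890) and Agrn (0.886). Smaller ratios were those of Il1f5 (0.885), C1galt1c1 (0.883), Hmgn2 (0.880), Piga (0.878), Fgfr3 (0.876), Igf1r (0.874), B4gat1 (0.862), Man2a1 (0.858), Notch2 (0.851), Rps27 (0.834), Ddb1 (0.832) and Jag1 (0.8295). By their mean over the 4 samples most of these were bright genes.

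Replicate 1 lay above the others for 12 genes. The ratio is given in brackets for Cxcl12 (0.930), Klra10 (0.916), Ccl27a (0.903), Il17a (0.895), Galnt13 (0.893), Pgm3 (0.886), Ccr2 (0.867), Il23r (0.854), B3galt2 (0.853), Jag2 (0.846), Colec10 (0.839) and Il21 (0.834). Of these, Ccl27a and Jag2 had a mean in the brightest 25%.

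Other samples were far in 3 genes. Replicate 2 lay above the others for Dpagt1 (0.971) and Il2rb (0.853), and replicate 4 lay below them for Siglec15 (0.847).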

How the results depend on the processing

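The 4 samples were few and RMA values carry no detection call, so levels near the dim end have no order that can be relied on, and probe sets of the same gene disagreed by up to 3.75. Among the class and marker list medians and the median SD, leaving out replicate 1 moved 2. The proteoglycan median moved beyond the spread between samples, to 4.19 without replicate 1 (4.19 to 4.48 when each replicate was left out in turn, 4.38 with all). The median SD, judged by its ratio to the main value and not by that spread, was 0.146 (0.146 to 0.323, against 0.292). Leaving out 1 of 4 samples cannot move a mean by its own SD, so the levels of single genes are not tested by this. Of the 40 other lists, 5 shifted by more than 0.3 without replicate 1, all upward: Notch genes to 7.75, TGF-beta and BMP receptors to 6.47, Frizzled and Wnt co-receptors to 6.15, GPI anchor synthesis to 7.57 and N-glycan trimming and branching to 5.60. The Wnt ligand median, 4.34 with all samples, was 4.16 without replicate 1, 4.46 without replicate 4 and 4.20 by the median over samples, and that of interleukin 1 and Toll-like receptors was 3.18 by the mean over all probe sets of a gene.

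Leaving out the probe sets under the 25 percentile removes dim genes from the lists that held them. Medians were then higher for several lists: 6.15 for Langerhans and dendritic cell markers, 4.49 for T cell, 4.26 for NK cell, 3.63 for monocyte and macrophage, 3.77 for neutrophil and 4.47 for dermal fibroblast markers. They were 5.42 for glycan enzymes, 4.05 for lectins (with 3 and not 5 in the brightest 25%), 4.62 for proteoglycans, 4.48 for cytokines, 4.93 for receptors and 5.43 for all named genes. Of the 40 other lists 22 moved under that filter. Of the 236 single genes, 179 remained under that filter.

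Beyond 1 SD, the level of 3 genes moved with repeated quantile normalization, 1 with scaling and 9 with the mean over all probe sets of a gene, where Tgfbr2 was at 6.15, Egfr at 6.005, Csf1 at 6.22, Ust at 8.30 and Ccl27a at 8.18. No paired analysis was possible because the samples form 1 group and no test was made.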
